A study of Mus musculus with 20 samples.

Results

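Total RNA of cultured macrophages labelled as HuR knockout was compared with that of control macrophages kept in normoxia. The comparison holds 5 libraries of the 20 in the series, 2 control libraries and 3 knockout-labelled ones, and was made across 12864 genes, those with at least 1 transcript per 1000000 (TPM) in at least 2 of the 5 libraries. The cells came from mouse embryos of day E14.5 by the study's design text and E14.4 by its growth protocol. Fetal liver cells had been grown for 6 days in medium conditioned by L cells, and the plates used here stayed at 20% O2 while others of the study went to 1% O2 for 18 h. All 5 mice carried Csf1r-iCre and a ribosomal protein L10a fused to EGFP, so the controls have the recombinase too. The controls, WT-280 and WT-281 by their animal numbers, were HuR +/+, and the knockout-labelled mice, KO-84, KO-94, then KO-179, were HuR fl/fl. Values are always listed in this order of animals. Poly(A)-enriched libraries were made from the total RNA of each lysate, called input, and from the RNA on tagged ribosomes of the same lysate, called TRAP.

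HuR, the product of Elavl1, is an RNA-binding protein of the ELAV family that binds AU-rich and U-rich stretches, mostly in introns and 3′ untranslated regions. It is known for stabilising short-lived mRNAs and for changing their translation, and in macrophages many of its known targets encode cytokines, chemokines and enzymes of inflammation. Other proteins bind similar elements and shorten the life of the same mRNAs, such as tristetraprolin (Zfp36), KSRP (Khsrp) and AUF1 (Hnrnpd). Csf1r encodes the receptor for the macrophage growth factor CSF1, and iCre driven by Csf1r sequences acts in cells of that lineage. Any cell in the culture that never used those sequences would keep the gene.

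Elavl1 (ENSMUSG00000040028, chr8:4284781-4325140 in GRCm38) did not have a lower level in knockout-labelled cells. It measured 47.3 and 25.9 TPM in the controls against 40.1, 154 and 43.0 TPM in the knockout-labelled libraries. KO-84 and KO-179 lay between the controls and KO-94 lay above them, so the groups overlapped. The log2 difference, knockout-labelled minus control on the log2(TPM + 1) scale used throughout, was 0.86 ± 0.66 (SE; limma, two-sided, unadjusted p = 0.221, adjusted p = 1.00), and 0.24 to 1.28 when each library was left out in turn. A TPM value covers a whole gene, and the position of the floxed exons is not in the labels. The level may therefore check nothing about the deletion, and every direction given here rests on the labels. Around Elavl1, 11 of its 20 nearest genes were tested, 5 with a higher and 6 with a lower mean in the knockout-labelled libraries (median difference −0.04). Of these 11, only Ccl25, a chemokine gene and the next gene along the chromosome, had groups that did not overlap, with 4.33 and 4.24 TPM in the controls against 4.89, 5.00 and 16.9 TPM in the knockout-labelled libraries, a difference of 0.70 that was 0.17 without KO-179. Over all genes tested, 9.93% had all 3 knockout-labelled libraries above both controls and 5.61% had all 3 below.

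Of the 18 listed HuR relatives and other proteins that bind AU-rich elements, 16 were tested. Of these, 10 had a higher and 6 a lower mean in the knockout-labelled libraries, beside 7327 and 5537 of the 12864 genes tested. Hnrnpd, which encodes the decay factor AUF1, measured 41.2 and 35.9 TPM in the controls against 56.0, 47.0 and 87.8 TPM in the knockout-labelled libraries (difference 0.66 ± 0.48, or 0.41 without KO-179). All 3 knockout-labelled libraries exceeded both controls. Tial1, which encodes the translational repressor TIAR, measured 22.4 and 33.6 TPM in the controls against 2.39, 13.6 and 7.95 TPM in the knockout-labelled libraries (−1.90 ± 0.72, adjusted p = 1.00). Here all 3 were below both controls, as they were for Rc3h1, which encodes the RNA-binding ubiquitin ligase Roquin-1 (4.06 and 3.33 against 1.77, 3.24 and 2.47 TPM). Zfp36, whose product promotes decay of Tnf mRNA, overlapped at 390.4 and 256 TPM against 196, 498 and 173 TPM. The median difference of the 16 genes was 0.06, and it turned to −0.35 without KO-94, −0.06 without KO-84, −0.13 without WT-281 and −0.08 after quantile normalization.

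No gene passed the test. With limma and Benjamini-Hochberg adjustment over 12864 genes, 0 genes had an adjusted p under 0.05 (0.0% of the genes tested), and the smallest adjusted p was 1.00. At an unadjusted p under 0.05 there were 269 genes, or 2.09% of those tested. All 3 knockout-labelled libraries were above both controls for 1278 genes (9.93%), and all 3 were below both for 722 genes (5.61%). These shares are the background for every count of non-overlapping genes below. Counts of higher and lower means have their own background, 7327 genes higher and 5537 lower on average of the 12864. The adjusted p of every gene named below was 1.00, so its values describe these 5 libraries. Each limma SE is drawn toward a trend fitted over all genes tested, so it is not the spread of a gene's own 5 libraries. Whether animals of a group came from separate litters is not stated, so errors reach no further than these libraries.

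KO-94 stood apart from the other libraries. Across the genes tested, which are not independent replicates, its Pearson correlation with the other 4 libraries was 0.797 to 0.880, against 0.867 to 0.932 for the other pairs. The median gene lay 0.58 above the control mean in KO-94, against −0.08 in KO-84 and −0.01 in KO-179, and KO-94 was the highest of the 3 for 867 of the 1278 genes above both controls (67.8%) and for 60.7% of all genes. Over all 5 libraries the median difference was 0.10, or −0.04 without KO-94 and 0.02 after quantile normalization. Mitochondrially encoded mRNA made up 3.02% and 3.19% of TPM in the controls against 4.75%, 2.27% and 2.95% in the knockout-labelled libraries (3.10 ± 0.117, n = 2, against 3.33 ± 1.28, n = 3, SD; exact two-sided permutation p = 1, with 10 arrangements, too few to give a p under 0.05). Without KO-84 that difference changed sign, from 0.223 to −0.49 percentage points. KO-84 listed 13 genes at 0 whose median over the libraries was at least 20 TPM, against 0 to 2 in each of the others. Medians of gene groups are given with and without KO-94 where it moved them most, and so are the differences of several single genes that 1 library moved most. The part of the mitochondrial share, of the genes listed at 0 and of the shift of KO-94 in those results was not tested.

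**Figure D1:**
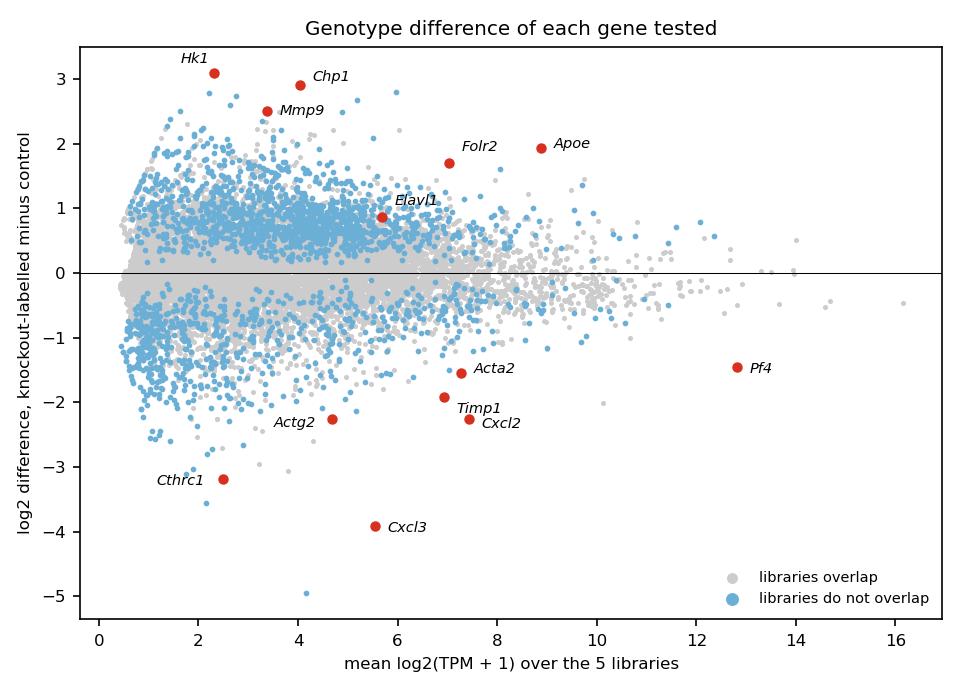
Log2 difference between knockout-labelled and control libraries against the mean log2(TPM + 1) over the 5 libraries, with 1 point per gene tested. Blue points are genes whose libraries did not overlap between groups, grey points are the others, and red points are named genes, from Cxcl3 at −3.92 to Hk1 at 3.09.

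The cultures carried macrophage transcripts in every library. Cd68, a lysosomal glycoprotein of macrophages, measured 2839 and 1814 TPM in the controls against 2230.4, 2759.6 and 2939 TPM in the knockout-labelled libraries. Adgre1, which encodes the surface antigen F4/80, measured 231 and 309 TPM in the controls against 415, 676 and 411 TPM in the knockout-labelled libraries (0.86 ± 0.45). Csf1r, whose sequences drive iCre, measured 106 and 67.8 TPM against 96.5, 394 and 142 TPM (1.04 ± 0.62). The groups overlapped for Cd68 and Csf1r and did not for Adgre1. Of the 15 listed genes of macrophage identity, all tested, 12 were higher and 3 lower on average, with a median difference of 0.54 that was 0.17 without KO-94. Erythroid genes, abundant in whole fetal liver at this stage, were near 0, with none of 15 passing the TPM minimum, 10 of 15 at 0 in all 5 libraries and a summed level of 0 in both controls and in KO-179, 4.36 TPM in KO-84 and 3.16 TPM in KO-94. For neutrophils 8 of 12 markers were at 0 in all 5 libraries, and S100a8 reached 16.5 TPM. For mast cells and basophils 8 of 11 were at 0, and their summed level was at most 1.93 TPM. For lymphoid cells 11 of 14 were at 0, but Il7r measured 81.4 and 90.2 TPM against 108, 119 and 35.7 TPM, and Cd79b reached 48.0 TPM. For endothelium 5 of 12 were at 0, among them Cdh5 and Tie1, with a summed level of 15.5 and 27.1 TPM against 15.7, 19.7 and 19.1 TPM that came mostly from Vwf, Eng and Kdr. Hepatocyte markers summed to 46.2 and 61.3 TPM against 56.1, 374 and 99.7 TPM, mostly through Trf (transferrin, up to 356 TPM in KO-94), with Afp at up to 22.2 TPM and Hnf4a at 0 in all 5. The part of such cells in the differences below was not tested. Xist stayed at or below 1.47 TPM in all 5 libraries, and the Y-linked genes Ddx3y (6.24 to 23.1 TPM), Eif2s3y, Kdm5d and Uty were present in all 5.

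The genes with the largest differences upward included those of Hk1 and Chp1. Hk1, which encodes the glycolytic enzyme hexokinase 1, measured 0.628 and 0.167 TPM in the controls against 7.53, 21.4 and 7.51 TPM in the knockout-labelled libraries, a difference of 3.09 ± 0.71 (unadjusted p = 0.00165). Chp1, which encodes a calcium-binding partner of sodium-proton exchangers, measured 3.08 and 4.87 TPM against 54.4, 18.9 and 43.5 TPM (2.90 ± 0.63, unadjusted p = 0.00113). For both genes every knockout-labelled library lay far above both controls, and the highest library was KO-94 for Hk1 but KO-84 for Chp1. Also among the 12 largest, Mmp9, which encodes the secreted gelatinase MMP9 and is among the mRNAs reported as HuR targets, measured 2.64 and 2.73 TPM in the controls against 12.3, 38.0 and 16.5 TPM in the knockout-labelled libraries (2.50 ± 0.67). Egr2, a zinc-finger transcription factor gene, measured 4.45 and 3.62 TPM against 29.2, 38.7 and 9.59 TPM (2.22 ± 0.70). The Mmp9 controls were close to each other and each knockout-labelled library was well above them, whereas KO-179 was nearer to the controls for Egr2. Others of the 12 were Urgcp, E2f6 (a transcriptional repressor), Igsf6, Fignl1 (an ATPase of DNA repair), Igf2bp2 (an mRNA-binding protein), Mamdc2 and Ccr3 (a chemokine receptor), with differences from 2.21 to 2.79. Some of these rest on 1 control, since leaving out WT-280 moved Igf2bp2 from 2.50 to 0.88, and leaving out WT-281 moved Igsf6 from 2.67 to 1.07 and Ccr3 from 2.21 to 1.48.

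The largest differences downward were led by Cxcl3, Cthrc1 and Steap1. Cthrc1, which encodes a secreted collagen triple-helix repeat protein made mainly by fibroblast-like cells, measured 23.1 and 17.8 TPM in WT-280 and WT-281, was listed at 0 in KO-84, and measured 1.35 and 4.42 TPM in KO-94 and KO-179 (−3.19 ± 0.80). Steap1 measured 19.6 and 6.44 TPM in the controls and 1.91 TPM in KO-94, and was listed at 0 in KO-84 and KO-179 (−3.11 ± 0.77). Both were below the controls in every knockout-labelled library. Clec4n, which encodes the fungal receptor dectin-2, measured 56.7 and 130.1 TPM in the controls against 55.9, 5.68 and 19.4 TPM in the knockout-labelled libraries (−2.14 ± 0.83). KO-84 was just below the lower control, so the separation of Clec4n rests on a narrow gap there. Nqo1, a quinone reductase gene of the antioxidant list and not among the 12 largest, measured 14.999 and 20.2 TPM against 4.13, 4.25 and 2.54 TPM (−2.01 ± 0.62). All 3 knockout-labelled libraries were well below the controls. The rest of the 12 were AA467197, Ndufa4l2, Fkbp11, Ropn1l, Sugp2 and Fabp7, from −3.03 to −2.13, and Cxcl2 and Actg2, described with their groups. These values depend on single libraries. The difference of Clec4n was −1.35 without KO-94, and that of Fkbp11 −1.75 without KO-179. Without KO-84 that of Fabp7 was −0.95 and that of Sugp2 −1.45. KO-84 was listed at 0 for Ndufa4l2, Ropn1l, Sugp2 and Fabp7, and KO-179 for Ropn1l and Fkbp11.

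Contractile genes were lower on average, by a similar median in each of the 3 knockout-labelled libraries. These genes encode the actin-myosin machinery of smooth muscle and myofibroblasts, and some of them are also expressed by macrophages. Of 14 smooth muscle and contractile genes, all tested, 13 had a lower mean, and in 7 of 14 all 3 knockout-labelled libraries were below both controls, beside 5.61% of all genes. Their median difference was −1.16, with deviations from the control mean of −1.07 in KO-84, −1.30 in KO-94 and −1.15 in KO-179, and −1.39 to −0.94 with each library left out in turn. For all genes tested the median was 0.10. None of the 14 passed the test, and 6 had an unadjusted p under 0.05. Actg2, the gamma smooth muscle actin gene, measured 89.7 and 46.4 TPM in the controls against 9.92, 11.6 and 17.6 TPM in the knockout-labelled libraries (−2.26 ± 0.55, unadjusted p = 0.00239). Acta2, the alpha smooth muscle actin gene, measured 399 and 216 TPM against 106, 74.9 and 124 TPM (−1.55 ± 0.48). Tpm2, which encodes a tropomyosin that lies along actin filaments, measured 80.2 and 57.2 TPM against 26.1, 18.4 and 9.91 TPM (−1.94 ± 0.56). The lowest library differed between these genes, KO-84 for Actg2, KO-94 for Acta2 and KO-179 for Tpm2, and in each the groups stood clearly apart. Cald1, which encodes the actin-binding protein caldesmon, measured 50.8 and 41.9 TPM against 9.46, 11.4 and 19.6 TPM (−1.76 ± 0.54), again with no overlap. The exception among the 14 in the direction of the mean was Tpm4, a tropomyosin gene of non-muscle cells, at 292 and 189.7 TPM against 213, 665 and 221 TPM, with groups that overlapped.

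Genes of the extracellular matrix and of fibroblasts had a like pattern, with 16 of 18 tested genes lower on average and 8 of 18 below both controls in all 3 knockout-labelled libraries. Their median difference was −0.90 (−0.54 without KO-94), and their summed level was 540 and 428 TPM in the controls against 326, 150 and 302 TPM in the knockout-labelled libraries. Sparc, a matrix-binding glycoprotein gene, measured 226 and 172 TPM in the controls against 128, 45.2 and 116 TPM in the knockout-labelled libraries (−1.16 ± 0.54). Col5a1, a chain of fibrillar collagen V, measured 8.83 and 6.85 TPM against 2.26, 1.40 and 3.10 TPM (−1.47 ± 0.64). KO-94 was the lowest library for both, and without it the difference of Sparc was −0.69. The platelet-derived growth factor receptor genes that define fibroblasts and mural cells were near the floor in all libraries, Pdgfra at no more than 1.11 TPM and Pdgfrb at no more than 1.19 TPM, each highest in WT-280. Timp1, an inhibitor of matrix metalloproteinases and one of 4 of the 10 tested genes of that list below both controls in all 3, measured 312 and 231 TPM against 92.8, 31.8 and 118 TPM (−1.91 ± 0.59), chosen here after its values were seen. Mmp9 of the same list stood on the other side, as given above. In bulk RNA such as this, fewer cells of a type and less RNA per cell cannot be told apart.

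**Figure D2:**
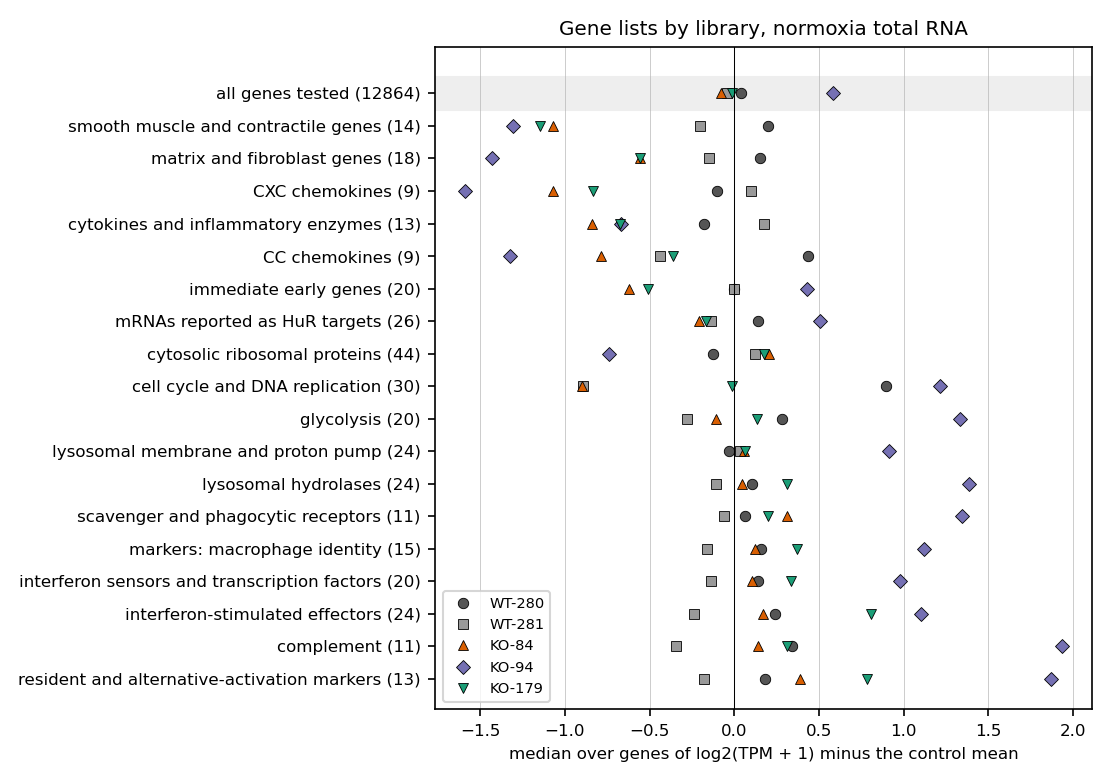
Median over the tested genes of each list (number in brackets) of log2(TPM + 1) minus the mean of the 2 controls, for each of the 5 libraries, with all genes tested in the shaded band. The 3 knockout-labelled libraries lie together for contractile genes (−1.30 to −1.07), whereas KO-94 alone lies far to the right for complement genes (1.94 against 0.14 and 0.31).

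Chemokine genes with the CXC motif, some of whose products attract neutrophils and several of which are known to carry AU-rich elements, were also lower on average. Of 13 listed, 9 were tested, 7 were lower on average and 4 were below both controls in all 3 knockout-labelled libraries, with a median difference of −1.05 (−1.81 to −0.87 with each library left out). Cxcl9, Cxcl11 and Cxcl13 were at 0 in all 5 libraries. Cxcl3 had the largest difference of all named genes, with 124 and 453 TPM in the controls against 83.96, 0.975 and 22.5 TPM in the knockout-labelled libraries (−3.92 ± 1.30, unadjusted p = 0.0139), and −5.13 to −2.42 with each library left out. Cxcl2, whose product recruits neutrophils, measured 291 and 673 TPM against 210.4, 37.8 and 94.9 TPM (−2.26 ± 0.70). Cxcl1 measured 27.7 and 32.1 TPM against 14.7, 2.33 and 17.2 TPM (−1.65 ± 0.78). In each of these genes KO-94 was by far the lowest library, and the controls of Cxcl2 and Cxcl3 themselves differed widely. Pf4, an abundant chemokine of platelets that is also a macrophage transcript, measured 13164 and 13365 TPM against 9567, 1608 and 7438 TPM (−1.45 ± 0.79). Without KO-94 the difference was −2.42 for Cxcl3, −0.87 for Cxcl1 and −0.65 for Pf4. Of the 10 listed megakaryocyte genes, Pf4 among them, Itga2b and Gp5 were at 0 in all 5 libraries, while Ppbp measured 32.5 and 46.3 TPM against 59.2, 12.2 and 8.78 TPM, Vwf 4.40 to 14.2 TPM and Treml1 up to 6.11 TPM. Their part in the level of Pf4 was not tested.

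Cxcl1, Cxcl2 and Cxcl3 lie close together on chromosome 5, and their promoters are shown because all 3 genes were lower in every knockout-labelled library and all 3 promoters hold a kB letter pattern, the kind of site that NF-kB binds. The sequences are from RefSeq (GRCm38.p6, + strand), 5′ to 3′, with the match in capitals and 30 bases on either side, and lie at chr5:90891145-90891213, chr5:90903773-90903841 and chr5:90785999-90786067.
Cxcl1: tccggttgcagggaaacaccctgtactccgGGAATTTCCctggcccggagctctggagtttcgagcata
Cxcl2: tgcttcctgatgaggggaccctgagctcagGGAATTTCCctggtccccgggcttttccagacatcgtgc
Cxcl3: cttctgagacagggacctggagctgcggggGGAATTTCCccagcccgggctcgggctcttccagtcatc
The 9 letters in capitals are the same in all 3. The pattern searched was GGANNTTCC, or GGAANNTCC on the opposite strand, in windows from 250 bases before to 50 after each gene's start. It was found in 4 of 8 CXC chemokine genes that had a promoter in the table (Cxcl1, Cxcl2, Cxcl3 and Cxcl10), in 495 of 8911 tested genes with a promoter (5.55%) and in 1313 of 27025 genes in all (4.86%). Cxcl10, induced by interferon as well, carries the pattern, but its libraries overlapped (18.6 and 4.96 TPM against 0.920, 5.26 and 16.0 TPM). A match of letters is a description and shows no binding, and the pattern and the promoters shown were chosen after values were seen.

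CC chemokines, which attract monocytes, and cytokine genes were lower on average as well. Of 9 tested CC chemokine genes 8 had a lower mean (median −0.69), but only Ccl3 was separated, with 1439.5 and 1218 TPM in the controls against 1005, 615 and 895 TPM in the knockout-labelled libraries (−0.69 ± 0.46). Ccl2, the main monocyte attractant and a reported HuR target, overlapped, since WT-280 at 4344 TPM was high and WT-281 at 1430.4 TPM lay below KO-84 (1492 TPM) and KO-179 (1940.5 TPM). Of 13 tested cytokine and inflammatory enzyme genes 10 were lower on average, 3 of them below both controls in all 3, and the median was −0.84, which stayed between −1.06 and −0.48 with each library left out and was −0.35 with a pseudocount of 5. Tnf, the tumour necrosis factor gene with the best known AU-rich element, measured 73.7 and 70.4 TPM in the controls against 39.7, 44.97 and 32.1 TPM in the knockout-labelled libraries (−0.88 ± 0.45, unadjusted p = 0.0818). Ptx3, a secreted pattern-recognition protein gene, measured 2.73 and 3.76 TPM in the controls and 0.464 TPM in KO-94, and was listed at 0 in KO-84 and KO-179. On the other side stood Il1rn, which encodes the interleukin 1 receptor antagonist, at 20.8 and 7.37 TPM against 35.0, 71.1 and 23.7 TPM (1.56 ± 0.65). Il1rn was named after its values were seen. The groups of Tnf values stood well apart, while KO-179 was only slightly above WT-280 for Il1rn. Of the NF-kB subunit and feedback genes, 10 of 16 were higher on average, with a median of 0.26, or −0.17 without KO-94. Nfkbia, which encodes the inhibitor IkB alpha and is itself induced by NF-kB, was below both controls in all 3, at 223 and 229.5 TPM against 123, 167 and 137 TPM. It too was named after its values were seen. The subunit genes Nfkb2 and Rel and the inhibitor gene Nfkbie were above both controls in all 3. Of 20 immediate early genes, which mark recent stimulation, 15 were lower on average (median −0.23), with −0.62 in KO-84 and −0.51 in KO-179 but 0.43 in KO-94.

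The promoter of Tnf holds the same kind of pattern, at chr17:35202181-35202249 (GRCm38.p6, − strand), and is shown for comparison with the chemokine promoters.
Tnf: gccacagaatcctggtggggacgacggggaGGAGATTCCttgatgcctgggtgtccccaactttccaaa
Of the 11 cytokine and inflammatory enzyme genes with a promoter in the table, Tnf, Csf1 and Acod1 held the kB pattern, and of 5 CC chemokine genes Ccl12 did.

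mRNAs reported elsewhere as HuR targets lay on both sides of the controls. Of 30 listed, 26 were tested, 9 with a higher and 17 with a lower mean in the knockout-labelled libraries. Mmp9, Mcl1 and Trp53 were above both controls in all 3, beside 9.93% of all genes, and Tnf was below, beside 5.61%. The median difference was −0.11 and ranged from −0.40 without KO-94 to 0.15 without WT-280, beside 0.10 for all genes tested. None of the 26 passed the test.

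**Figure D3:**
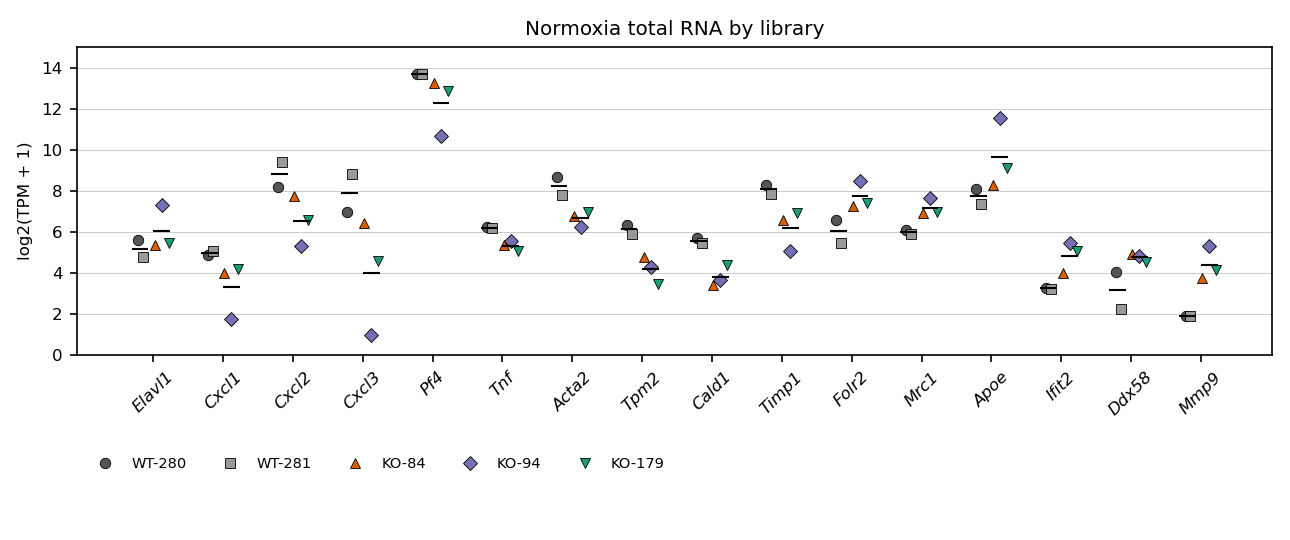
log2(TPM + 1) of 16 genes in the 2 control (grey) and 3 knockout-labelled (coloured) libraries of normoxia total RNA, with 1 symbol per library and a bar at each group mean. Elavl1 overlaps between the groups, and the other 15 genes do not; KO-94 is the lowest library for Cxcl1, Cxcl2, Cxcl3 and Pf4 and the highest for Folr2, Mrc1, Apoe, Ifit2 and Mmp9.

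Interferon-stimulated genes, whose products restrict viruses, were higher on average. Of 24 effectors, all tested, 21 had a higher mean and 7 were above both controls in all 3 knockout-labelled libraries, beside 9.93% of all genes. The median difference was 0.65, and 0.40 to 0.86 with each library left out. By library the median deviation was 0.17 in KO-84, which lay within the control libraries (−0.24 and 0.24), 1.10 in KO-94 and 0.81 in KO-179. Ifit2, which binds foreign RNA, measured 8.50 and 8.24 TPM in the controls against 14.6, 42.2 and 32.5 TPM in the knockout-labelled libraries (1.59 ± 0.61). Ifi44 measured 1.57 and 7.55 TPM against 11.5, 15.2 and 15.1 TPM (1.66 ± 0.70). Rtp4, a transmembrane protein gene induced by interferon, measured 58.5 and 20.9 TPM against 133, 96.2 and 60.6 TPM (1.36 ± 0.58). All 3 genes were separated, narrowly so for Rtp4, where KO-179 was just above WT-280. The controls differed for Ifi44 and Rtp4, whose differences were 0.79 without WT-280 and 0.64 without WT-281, respectively.

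The sensors and transcription factors of the interferon response were higher on average in 17 of 20 cases, 6 of them above both controls in all 3 (median 0.43, or 0.26 without KO-94). Ddx58, which encodes the RNA sensor RIG-I, measured 15.6 and 3.65 TPM in the controls against 29.0, 27.4 and 22.2 TPM in the knockout-labelled libraries (1.62 ± 0.65), with knockout-labelled libraries close to each other and a difference of 0.70 without WT-281. Irf2, a transcription factor gene of the pathway, measured 31.9 and 27.2 TPM against 78.9, 46.5 and 38.7 TPM (0.80 ± 0.50, or 0.51 without KO-84). The genes for the receptor of type I interferon lay on opposite sides of the controls. Ifnar1 measured 18.9 and 16.2 TPM in the controls against 28.5, 87.0 and 26.5 TPM in the knockout-labelled libraries (1.16 ± 0.62, or 0.62 without KO-94). Ifnar2 measured 228 and 222 TPM against 138, 171 and 147 TPM (−0.57 ± 0.41). The groups overlapped for neither subunit, and none of the 20 genes passed the test.

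Promoters of Ifit3, Rsad2 and Irf2 are shown as examples of the interferon-stimulated response element, searched as GAAA, any 2 bases, then GAAA or, on the opposite strand, TTTC, any 2 bases, then TTTC. They are from RefSeq (GRCm38.p6), each read along its gene, at chr19:34583343-34583446 (+ strand), chr12:26456533-26456602 (− strand) and chr8:46739495-46739543 (+ strand), with the matches in capitals.
Ifit3: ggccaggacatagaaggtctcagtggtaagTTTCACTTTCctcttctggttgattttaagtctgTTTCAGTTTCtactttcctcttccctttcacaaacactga
Rsad2: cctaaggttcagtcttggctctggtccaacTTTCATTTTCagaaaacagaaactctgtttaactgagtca
Irf2: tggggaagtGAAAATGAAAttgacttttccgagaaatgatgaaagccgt
Ifit3 holds the pattern at 2 places. These promoters were chosen after values were seen. The groups overlapped for Ifit3 (difference 1.30) and Rsad2 (1.05), since KO-84 lay below WT-280 for both genes. The pattern was in 9 of 16 effector genes with a promoter in the table, and in 4 of 16 sensor and transcription factor genes (Ddx58, Ifih1, Stat2 and Irf2), beside 356 of 8911 tested genes and 1079 of 27025 in all (3.99%). Of the separated effectors with a promoter in the table, Ifit2, Ifi44 and Cmpk2 had no match and Oas3 held the pattern. The lack of a match says only that these letters are not in this window.

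Markers of resident and alternatively activated macrophages were higher on average in 10 of 13 tested cases, and 5 of 13 were above both controls in all 3 knockout-labelled libraries. The median difference was 1.12, with 0.39 in KO-84, 1.87 in KO-94 and 0.79 in KO-179, and it was 0.67 without KO-94. Of the 22 genes on that list, 8 were at 0 in all 5 libraries, among them Cd163, Vsig4 and Retnla. Folr2, the folate receptor beta of tissue macrophages, measured 95.1 and 42.9 TPM in the controls against 153, 357 and 169 TPM in the knockout-labelled libraries (1.70 ± 0.55). Mrc1, the mannose receptor gene, measured 66.8 and 57.6 TPM against 118, 199.8 and 124 TPM (1.19 ± 0.45). Selenop, a secreted selenium carrier gene, measured 536 and 417 TPM against 795, 2522 and 889 TPM (1.36 ± 0.58). KO-84 and KO-179 were close to each other for these 3 genes, and KO-94 was well above them, so that the difference of Selenop was 0.83 without it. Gas6, which encodes a ligand of the receptors that clear dying cells, measured 14.3 and 11.5 TPM against 17.1, 56.3 and 49.7 TPM (1.44 ± 0.62), with KO-84 only slightly above the controls. Id3, a transcriptional regulator gene of resident macrophages, was the member of the list below both controls in all 3, at 123 and 52.8 TPM against 11.6, 44.8 and 26.7 TPM (−1.69 ± 0.65), named after its values were seen.

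Scavenger, lysosomal and complement genes were higher on average, with KO-94 farthest from the controls. Of 11 tested scavenger and phagocytic receptors 10 were higher on average (4 of 11 above both controls in all 3) with a median of 0.44, or 0.07 without KO-94. Siglec1, the sialoadhesin gene, measured 11.5 and 14.0 TPM in the controls against 20.1, 46.7 and 43.5 TPM in the knockout-labelled libraries (1.37 ± 0.56). Of 24 lysosomal hydrolases 21 were higher on average (7 of 24 above both controls in all 3), with a median of 0.65, or 0.27 without KO-94, and of 24 genes of the lysosomal membrane and proton pump 20 were, with 0.38 and 0.08. Atp6v0a1, a subunit of the proton pump, measured 22.3 and 14.8 TPM against 59.3, 157 and 55.2 TPM (2.08 ± 0.58), and Siglec1 and Atp6v0a1 were each separated in every library. Lgmn, the asparaginyl endopeptidase gene, measured 559.5 and 447 TPM against 781, 1663 and 728 TPM (0.97 ± 0.51, or 0.59 without KO-94). All 11 tested complement genes were higher on average, 2 of them above both controls in all 3, and the median of 0.91 became 0.64 without KO-94. C5ar1, the C5a receptor gene, overlapped, with KO-94 far above the rest, at 61.9 and 22.7 TPM against 36.0, 1058 and 29.3 TPM. Apoe, the apolipoprotein E gene among the targets of the sterol-sensing LXR receptors, measured 269 and 163 TPM against 313, 3024 and 547 TPM (1.93 ± 0.84, or 0.98 without KO-94), and was above the controls in all 3 though mainly in KO-94. The median gene of KO-94 itself lay 0.58 above the controls.

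Housekeeping and growth groups varied widely between libraries of the same genotype. The 30 cell cycle and DNA replication genes had a median difference of −0.01, which ran from −0.87 to 0.80 with each library left out, and the controls themselves lay at 0.89 (WT-280) and −0.89 (WT-281). For 44 cytosolic ribosomal protein genes the median was −0.11, or 0.17 without KO-94, and for 13 mitochondrially encoded mRNAs −0.35, or 0.26 without KO-94. Glycolysis genes were higher on average in 16 of 20 cases (median 0.37), with −0.11 in KO-84, 1.34 in KO-94 and 0.13 in KO-179, and Hk1 was 1 of 3 of these genes above both controls in all 3. Class II antigen presentation genes had a median of −0.30 over 6 tested, and H2-Ab1 was separated at 2.39 and 6.51 TPM in the controls against 1.60 TPM in KO-94, listed at 0 in KO-84 and KO-179.

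The same animals also gave ribosome-bound RNA in normoxia and total RNA in hypoxia, whose genotype differences are set beside those of normoxia total RNA. Cells of an animal are shared between these sets, so they are no independent replication. In TRAP, all 3 knockout-labelled libraries were above both controls for 10.1% of the 12864 genes and below for 9.76%, and in hypoxia total RNA for 18.7% and 4.48%. Mmp9 was listed at 0 in both TRAP controls but measured 7.16, 22.5 and 6.72 TPM in the knockout-labelled animals. In hypoxia total RNA Mmp9 measured 5.80 and 5.15 TPM in the controls against 18.9, 48.8 and 23.6 TPM. Its groups were thus apart in all 3 sets. Acta2 was below both controls in all 3 animals in every set, with TRAP values of 64.0 and 47.3 TPM against 5.95, 9.02 and 23.2 TPM and hypoxia values of 286 and 230.4 TPM against 141, 38.9 and 149 TPM. Selenop measured 314 and 311 TPM against 496, 1902 and 606 TPM in TRAP, and 596 and 501 TPM against 829.5, 3365 and 867 TPM in hypoxia. Cxcl3 overlapped in both other sets because KO-84 lay above WT-280, with 68.4 and 319 TPM against 80.7, 1.19 and 11.9 TPM in TRAP. Cthrc1 also overlapped in both, with differences of −0.60 in TRAP and −0.64 in hypoxia. KO-84, listed at 0 for Cthrc1 in normoxia total RNA, measured 20.6 TPM in hypoxia total RNA.

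The groups of Chp1 and Hk1, apart in normoxia total RNA, overlapped in both other sets. In TRAP, Chp1 measured 21.0 and 31.6 TPM against 31.2, 14.0 and 13.7 TPM, and in hypoxia total RNA 5.71 and 43.3 TPM against 35.8, 25.5 and 54.9 TPM. Among the 10 input libraries, the normoxia controls, at 3.08 and 4.87 TPM, were thus the lowest for Chp1. The genotype difference of Chp1 was −0.48 in TRAP and 1.14 in hypoxia, and that of Hk1 0.03 and −0.07. The test of the difference between sets, an interaction term in limma, gave −3.38 ± 0.87 for Chp1 and −3.06 ± 1.03 for Hk1 in TRAP minus input (adjusted p = 1.00 for each). Over 12864 genes, 0 passed that interaction (288 at an unadjusted p under 0.05) and 0 passed the interaction of genotype with hypoxia (229). With the animal as a replicate block the counts were again 0 and 0, with 803 and 849 at an unadjusted p under 0.05. No genotype difference was therefore shown to depend on the fraction or on oxygen.

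Over lists, the median differences in TRAP and in hypoxia total RNA were −0.80 and −0.95 for contractile genes, −0.84 and −0.44 for matrix genes, and −0.78 and −1.01 for CXC chemokines. They were 0.74 and 0.75 for interferon-stimulated effectors and 1.00 and 1.03 for resident and alternative-activation markers, beside 0.04 and 0.36 for all genes tested. Cytokine genes gave −0.56 and −0.07, so the value in hypoxia was near 0. Interferon sensors gave −0.03 in TRAP and 0.77 in hypoxia. Of the CXC chemokines, Cxcl1 overlapped in both sets, with a difference of 0.42 in TRAP and −0.79 in hypoxia. In TRAP, Cxcl1 measured 4.33 and 6.31 TPM in the controls against 21.7, 3.85 and 4.29 TPM in the knockout-labelled animals. Cxcl2 was below both controls in all 3 in TRAP but overlapped in hypoxia, and Pf4 the reverse. Some single genes were separated the other way than in normoxia total RNA. In TRAP, Rtp4 measured 103 and 125 TPM in the controls against 33.4, 83.3 and 96.4 TPM in the knockout-labelled animals. Irf2 there measured 80.3 and 66.8 TPM against 26.6, 42.1 and 27.6 TPM. In hypoxia, Hnrnpd was below both controls in all 3 (−0.45). Ifi44 stayed above both controls in all 3 in TRAP and in hypoxia. Of the 12 largest differences upward in normoxia total RNA, 4 were separated the same way in TRAP and 1, Mmp9, in hypoxia, and of the 12 largest downward, 3 and 4 were.

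**Figure D4:**
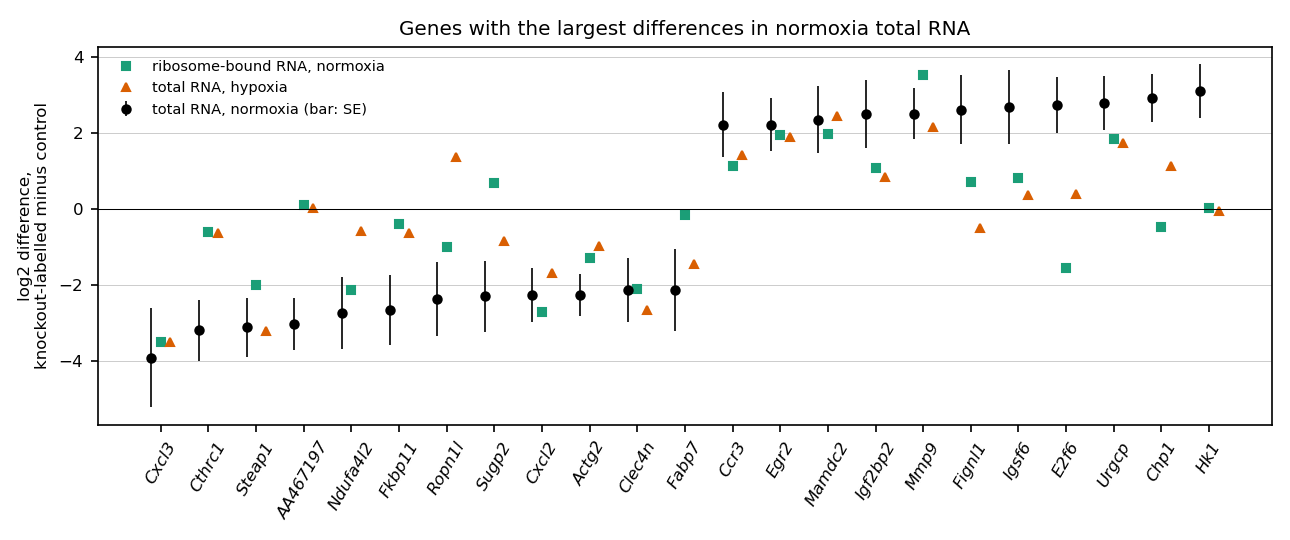
Log2 difference, knockout-labelled minus control, of the genes with the largest differences in normoxia total RNA (black circles with SE), beside the differences of the same genes in ribosome-bound RNA of normoxia (squares) and total RNA of hypoxia (triangles). Clec4n lies at −2.14, −2.11 and −2.67 in these sets, whereas Chp1 lies at 2.90, −0.48 and 1.14, and the square of Mmp9 has both controls listed at 0.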

How the data were processed

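The deposited tables hold 1 value per gene and library, read as TPM because each library sums to 1000000. The step by which the authors derived TPM from alignments was not found in these sources. The submitters' processing notes name HISAT, DESeq2 and GRCm38, without versions or roles. Sequencing depth cannot be read from TPM and is unknown here, so precision rests on the spread between libraries. Each table lists 52636 genes, 52403 of them with an ID that matched the RefSeq-based gene names, and of 27 symbols turned into dates 26 were named from their ID. Where a symbol occurred more than once (96 symbols), the copy with the highest mean was used for lists. In each table, 10 columns of ratios per animal were not used.

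A gene needed 1 TPM or more in 2 of the 5 normoxia input libraries, which left 12864 genes, and these were analysed as log2(TPM + 1) with limma 3.58.1 in R 4.3.3 (group means, empirical Bayes with a mean-variance trend), Benjamini-Hochberg adjustment over all of them, two-sided, threshold 0.05. The pseudocount understates changes of low genes. Interactions with fraction and with oxygen used the same genes. Whether the input and TRAP tables were normalized together is not known, so levels were not compared across them. The interaction with fraction compared genotype differences, each made within its own table. A group pair was called not overlapping where all 3 knockout-labelled values lay on 1 side of both controls. Python 3.11.15, numpy 2.4.6, pandas 2.3.3 and matplotlib 3.10.9 did the rest. The steps were checked on simulated data.

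Named genes were Elavl1, the 12 largest differences each way among non-overlapping genes (mean of at least 5 TPM, clone-like names left out), up to 4 non-overlapping members of each list with at least 5 tested members in the direction of its median (or 2 members where there were none), all tested AU-rich element binding proteins, the sex-linked genes and the separated neighbours of Elavl1 (10 on each side). A gene that the rule names is not reported here. Genes outside this rule are said to be, or serve as markers, as receptor partners or as an example of overlap, and were chosen after values were seen. Members and lists were chosen with earlier results of these data known. Promoters came from RefSeq (GRCm38.p6, 250 bases before to 50 after each start), matched by symbol for 8911 of the genes tested. Alternatives were pseudocounts of 0.1 and 5, no filter, quantile normalization, no trend, all 10 input libraries, each library left out, and for interactions the animal as a block. The labels name no batch. Per the labels, the animal numbers pair libraries of the same animal across fractions and oxygen, and controls and knockout-labelled mice share no number.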

Additional observations from a re-analysis of the deposited data

How the results depend on the processing

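The count of genes past the threshold between genotypes in normoxia total RNA was 0 under every alternative run, with 109 to 531 genes at an unadjusted p under 0.05 (limma). Of the adjusted p-values the lowest, 0.134, came without KO-179. Where a control was left out, the lone control was assumed to vary like the other group. No paired analysis was possible because the genotypes share no animal numbers. The interactions could be paired by animal, and with the replicate block their counts were 0 and 0 as without it. The interaction with fraction gave 0 to 1 genes with each animal left out, the 1 being mt-Nd2 without KO-94 (adjusted p = 0.00145), and that with oxygen gave 0 throughout. The mitochondrial mRNA difference ran from −0.49 (without KO-84) to 0.75 percentage points. Of 130 named genes, 13 changed sign under some alternative, all of them genes whose groups overlapped. Genes chosen because their groups did not overlap keep their sign by that choice when a library is left out, so theirs says nothing about stability. The 13 had these ranges of the log2 difference when each library was left out: −2.23 to 0.051 for Tyms, −3.03 to 0.21 for mt-Atp6, −0.47 to 0.55 for Elavl4, −0.78 to 0.0027 for Zfp36, −0.017 to 0.31 for Zfp36l1, −0.48 to 0.71 for Zfp36l2, −0.75 to 0.085 for Tia1, −0.72 to 0.76 for Tardbp, −0.46 to 0.27 for Zc3h12a, −0.36 to 0.48 for Pabpc1, −0.38 to 1.04 for Hnrnpc, −0.27 to 0.42 for Ybx1 and −0.57 to 0.65 for Kdm5d. After quantile normalization Zfp36l1 was at −0.081, Tardbp at −0.16 and Pabpc1 at −0.071, and Kdm5d was at −0.0028 with a pseudocount of 0.1. The cause of these changes was not tested. Values near 0 TPM have few reads behind them, how few being unknown.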

Other observations

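Other gene groups in normoxia total RNA are given as medians of the log2 difference, knockout-labelled minus control, beside 0.10 for all genes tested and with no test of the groups. None of their members passed the limma test. Of 22 heat shock proteins and chaperones 14 were higher on average and 6 were above both controls in all 3 knockout-labelled libraries (median 0.29, or 0.06 without KO-94). Of 23 p53 targets and apoptosis regulators 15 were higher on average and 4 were above both controls in all 3 (0.25, or 0.07 without KO-94). Cholesterol synthesis and uptake genes lay at 0.48 over 19 genes, or 0.00 without KO-94, and genes of cholesterol efflux and other LXR targets at 0.30 over 11, or 0.24 without KO-94. HIF targets outside glycolysis lay at 0.45 over 24 genes, or 0.01 without KO-94, Toll-like receptors and adaptors at 0.45 over 18, or 0.26, and iron-handling genes at 0.41 over 12, or 0.12. Class I antigen presentation lay at 0.26 over 14 genes and Fc gamma receptors at 0.23 over 9. ATF4 targets lay at −0.02 over 23 genes, NRF2 antioxidant genes at −0.26 over 15 and nuclear genes of the respiratory chain at −0.20 over 33. With each library left out, ATF4 targets ran from −0.25 to 0.21 and NRF2 genes from −0.58 to 0.20. Both were highest without WT-281.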
